A study of Mus musculus with 24 samples.

Results

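Sister oocytes, eggs ovulated by one mother, were compared with each other gene by gene. The 21 oocytes of 8 females were used, of 24 samples in the series, and no comparison of the genotypes was made. The females were 4 wild-type mice (Thy1.2-AMH 0/0) and 4 transgenic mice (Thy1.2-AMH Tg/0), all adults of unstated age. In the transgenic mice the Thy1.2 promoter, which is active in neurons, drives anti-Müllerian hormone (AMH). All eggs were naturally ovulated, taken from the oviduct, freed of cumulus and zona, and sequenced singly with a kit that primes at the poly(A) tail, so that amount of transcript and length of tail cannot be told apart in a level. Sequencing used 4 lanes, with the eggs of a wild-type and a transgenic mother in each. Females are called WT1 to WT4 and Tg1 to Tg4 by genotype and lane, and oocytes carry their letter (WT1C); values of a family are given in the order of the letters, which for Tg1 are B and C. Of the females 5 had 3 oocytes and 3 (WT4, Tg1 and Tg4) had 2, so the spread between sisters rests on 13 degrees of freedom. The genes were the 6528 of 25965 entries with a mean of at least 10 reads per 1000000 reads of the library (RPM). For each, the SD of log2(RPM + 1) around the mean of a mother's oocytes was pooled over the 8 mothers, and its excess is the log2 of that SD over the SD typical of genes at that level.

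The ovulated egg carries a store of maternal transcripts built up during follicle growth, and its own transcription is silent until after fertilisation. Stored messages are then deadenylated, readenylated or degraded as the egg matures. Sisters share a mother and a genotype but each grew in a follicle of its own.

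The libraries held 20441302 to 33341039 reads, so that 10 RPM stood for at least 204 reads. All 15 oocyte markers passed 10 RPM, and together they ran from 30180.0 to 45068 RPM. Of 30 cumulus and granulosa markers 0 reached a mean of 10 RPM, 6 had no read in any oocyte, and the 30 summed to between 6.7 and 54.1 RPM, with the highest sum in WT2C and the next at 25.4 RPM. A further 3 granulosa markers (Cyp19a1, Kitl and Nr5a2) were kept apart from the 30 because they were known to be present in every oocyte, and they summed to 64.2 to 102 RPM, 2 of them with a mean of at least 10 RPM. Of 19 blood markers 12 had no read. No oocyte was sequenced more than once, so differences between eggs and differences from the amplification of each egg's RNA cannot be told apart. The replicate here is the oocyte, and no label says whether the females of a genotype were littermates.

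The typical gene differed little between sisters. The median SD was 0.331 log2 units, which is a factor of 1.26 for 1 SD, and the central 80% of genes lay between 0.195 and 0.532. The spread fell with level, from a median SD of 0.462 in the tenth of genes with the lowest levels to 0.221 in the tenth with the highest. Counting of reads accounted for little of it. Its share of the variance, computed from the recovered reads, had a median of 1.75%, and it exceeded 50% for 0 genes. Relative to the trend with level, 626 genes (9.59%) had an SD of at least 1.5 times that of their level and are called high, and 607 (9.3%) had at most 0.667 of it and are called low. These percentages are the background against which the lists below are read. An SD on 13 degrees of freedom has a 95% interval from 0.725 to 1.61 times its value (chi-square, taking normal deviations). At the limits, Zfp943 lay just inside at 1.5 times and Fbxw19 just outside at 1.4996 times the trend, and Gm4204 just inside at 0.66659 and Tcl1b3 just outside at 0.66706 of it.

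**Figure D1:**
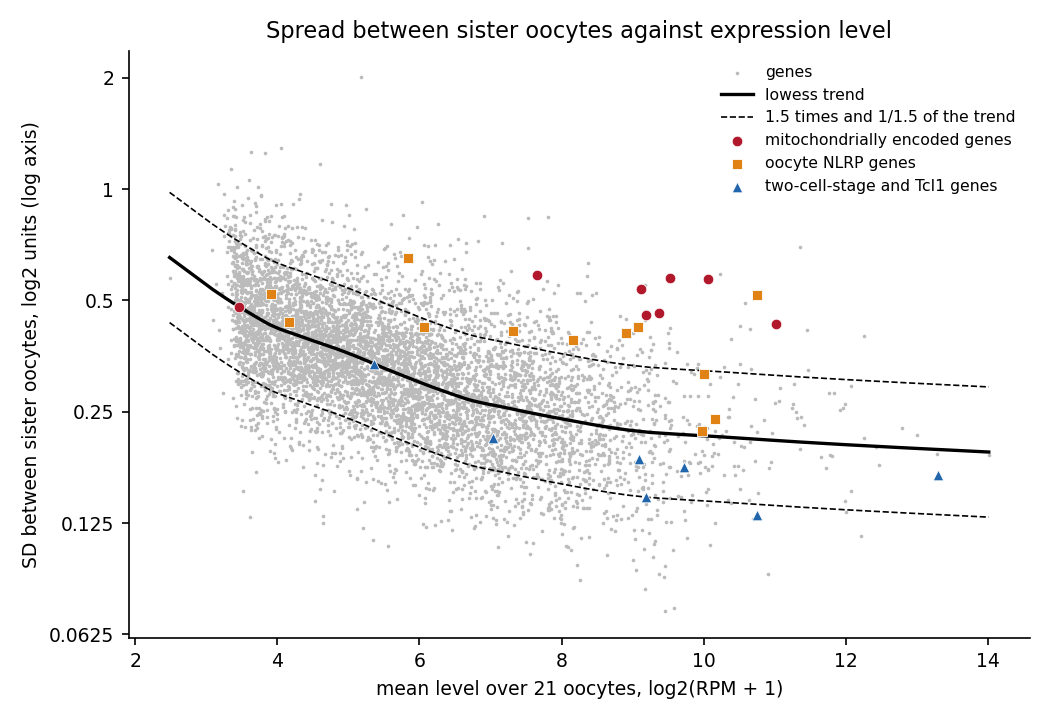
Each grey point is 1 of 6528 genes, with its mean level over 21 oocytes on the x axis and its SD between sisters on the y axis (log2 units, log axis); the solid line is the lowess trend and the dashed lines are 1.5 times and 0.667 of it. Red circles are the 8 mitochondrially encoded genes, 7 of them above the upper dashed line; orange squares are the 12 oocyte NLRP genes, all above the trend; blue triangles are the 7 two-cell-stage and Tcl1 genes, all on or below it.

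Gaps of 2-fold between some pair of sisters were frequent, and wider gaps were rare. Of 6528 genes 3279 (50.2%) differed at least 2-fold between some pair of sisters, 296 (4.53%) at least 4-fold, 29 at least 8-fold and 6 at least 16-fold, on the scale of RPM + 1, which understates gaps of low genes. In 726 genes no pair of sisters in any of the 8 families differed by 1.5-fold. The high calls recurred across lanes in part. Of the 626 high genes 315 (50.3%) were above the trend in each of the 4 lanes taken alone, against 11.3% of all genes. Of the 607 low genes 436 (71.8%) were below it in each lane, against 10.5% of all genes, and since the lanes also make up the pooled SD, these shares are a description of how evenly it arose. In 149 high genes (23.8%) 1 family gave over 50% of the summed squares, against 18.0% of all genes. Among the 5 families with 3 oocytes, the oocyte farthest from its family mean lay above it in 53.4% of high genes and in 45.8% of all genes. WT4, Tg1 and Tg4 were left out of this count, since the deviations of 2 sisters mirror each other.

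Among the genes whose SD was above the trend in all 4 lanes, an abundant secreted protease stood near the top. Plat encodes tissue-type plasminogen activator (chromosome 8, 22757744 to 22782847, GRCm38), a protein whose stored message is translated when the mouse oocyte matures. It stood at 2845, 1330.4 and 3646 RPM in WT1, 4167 and 4344 in Tg1, 1214, 1189 and 3844 in WT2 and 1187, 2821 and 1941 in Tg2. In the other lanes it stood at 828, 1429.5 and 2807 RPM in WT3, 3012, 1960.0 and 1362 in Tg3, 7809.5 and 8977 in WT4 and 8088 and 4753 in Tg4. Sisters of 6 families differed by over 1.5-fold, while the eggs of Tg1 were close to each other, as were those of WT4. The eggs of WT4 and Tg4 held the highest levels. Its SD was 0.70 log2 units and its excess 1.75, in a gene whose lowest egg held 828 RPM, where counting error is small.

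Phc2, a Polycomb group protein (chromosome 4, 128654702 to 128752881), had an excess of 1.79, the highest among genes above the trend in all 4 lanes. It stood at 164, 165 and 528 RPM in WT1, 186 and 1357 in Tg1, 169.7, 187 and 641 in WT2 and 142, 94.6 and 124 in Tg2, and at 150.1, 161 and 122 RPM in WT3, 143, 211 and 179 in Tg3, 216 and 351 in WT4 and 503 and 290.2 in Tg4 in lanes 3 and 4. A single egg stood about 3-fold or more above its sisters in WT1, Tg1 and WT2, and in lane 3 no sisters differed by 1.5-fold. Without those 3 eggs the excess fell to 0.53. An egg without a sister gives no deviation, so wherever Tg1C is left out, Tg1B drops out of the SD as well. Mier2, the heparan sulfate proteoglycan gene Sdc1 and the phosphatase gene Dusp7 had their highest level in Tg1C as well (782, 459 and 1285 RPM, beside 139, 131 and 333 RPM in Tg1B). Their excesses of 1.47, 1.44 and 1.44 became 0.66, 0.60 and 0.70 without the 3 eggs.

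Other genes varied in other eggs. Cdk5rap1, which modifies transfer RNA in mitochondria, ranged from 1.82 to 65.1 RPM inside WT2 alone and from 4.49 to 32.1 RPM inside WT3 (excess 1.63, and 1.83 without the 3 eggs). The chemokine receptor gene Cxcr3 differed 4.64-fold between sisters at most (on RPM + 1), with 43.3 RPM in WT1B against 167 and 204 RPM in its sisters (excess 1.68). Rspry1 stood at 2.39 RPM in Tg4A and 31.9 RPM in Tg4B (excess 1.61). The eggs at the extremes thus differed from gene to gene. Prl8a2, of the placental prolactin family, stood at 0.623 RPM in Tg2A and 37.7 RPM in Tg2B (excess 1.52). Lrrc8d, a subunit of volume-regulated anion channels, stood at 2.66 RPM in Tg4B and 47.0 RPM in Tg4A (excess 1.45), and that family gave 73.2% of its squares. Msrb3, a methionine sulfoxide reductase, had 258 and 30.8 RPM in the same 2 eggs (excess 1.48). The testis-type tubulin gene Tuba3b had 0 RPM in Tg3B against 18.0 and 19.2 RPM in its sisters, and 0.11 RPM in Tg1B against 11.1 RPM in Tg1C (excess 1.46). With the 3 eggs left out, 11 of the 12 genes of highest excess were still at 1.5 times the trend, Phc2 being the exception.

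The widest gap of all was that of Gli3, the Hedgehog pathway transcription factor (chromosome 13, 15463235 to 15730026), which was chosen after its values were seen. It stood at 0.132 RPM in Tg2C, against 149 and 78.3 RPM in its sisters, and at 0.632 RPM in Tg3B, against 40.8 and 89.7 RPM. The other 19 eggs lay between 21.7 and 179.9 RPM. Those 2 eggs stood apart from all others, and the SD was 2.01 and the excess 2.52. In all, 13 genes had an egg under 1 RPM beside a sister at 10 RPM or more, and Gli3 had the highest mean among them (55.5 RPM). Tuba3b, Prl8a2, the forkhead factor Foxp2, the retinoic acid receptor Rara and the mediator subunit Med18 were also among the 13.

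At the other end, some transcripts were held at nearly one level. Smn1, the assembly factor of spliceosomal particles (chromosome 13, 100124852 to 100137690), stood at 607, 597 and 628 RPM in WT1, 556 and 545 in Tg1, 627, 599.7 and 628 in WT2 and 598, 607 and 657 in Tg2. In the other lanes it stood at 563, 495 and 633 RPM in WT3, 507, 490.1 and 521 in Tg3, 598 and 553 in WT4 and 612 and 598 in Tg4. No pair of sisters differed by more than 1.28-fold, the SD was 0.08 log2 units and the excess -1.41. Cbx3, the heterochromatin protein HP1 gamma, had the lowest excess of the named genes (-1.83). It is a gene of low level, between 7.96 and 13.8 RPM over all 21 eggs, and its SD of 0.13 compares with 0.46 for the trend at that level. Arfip1 (-1.56, 774 RPM on average), which binds small GTPases of the Golgi, and Tpd52 (-1.42, 306 RPM) were abundant and even. Morf4l1, a subunit of histone acetyltransferase complexes, Zmym4, Eml5, Ormdl2, Mthfs, Cnp and Fbxl13 were also among the 12 of lowest excess, with -1.59 to -1.39 for Morf4l1 and Fbxl13. All 12 were below the trend in each lane and stayed at or under 0.667 of it without the 3 eggs. With each egg's slope on GC share removed, 11 of the 12 did, and Arfip1 rose to -0.38.

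**Figure D2:**
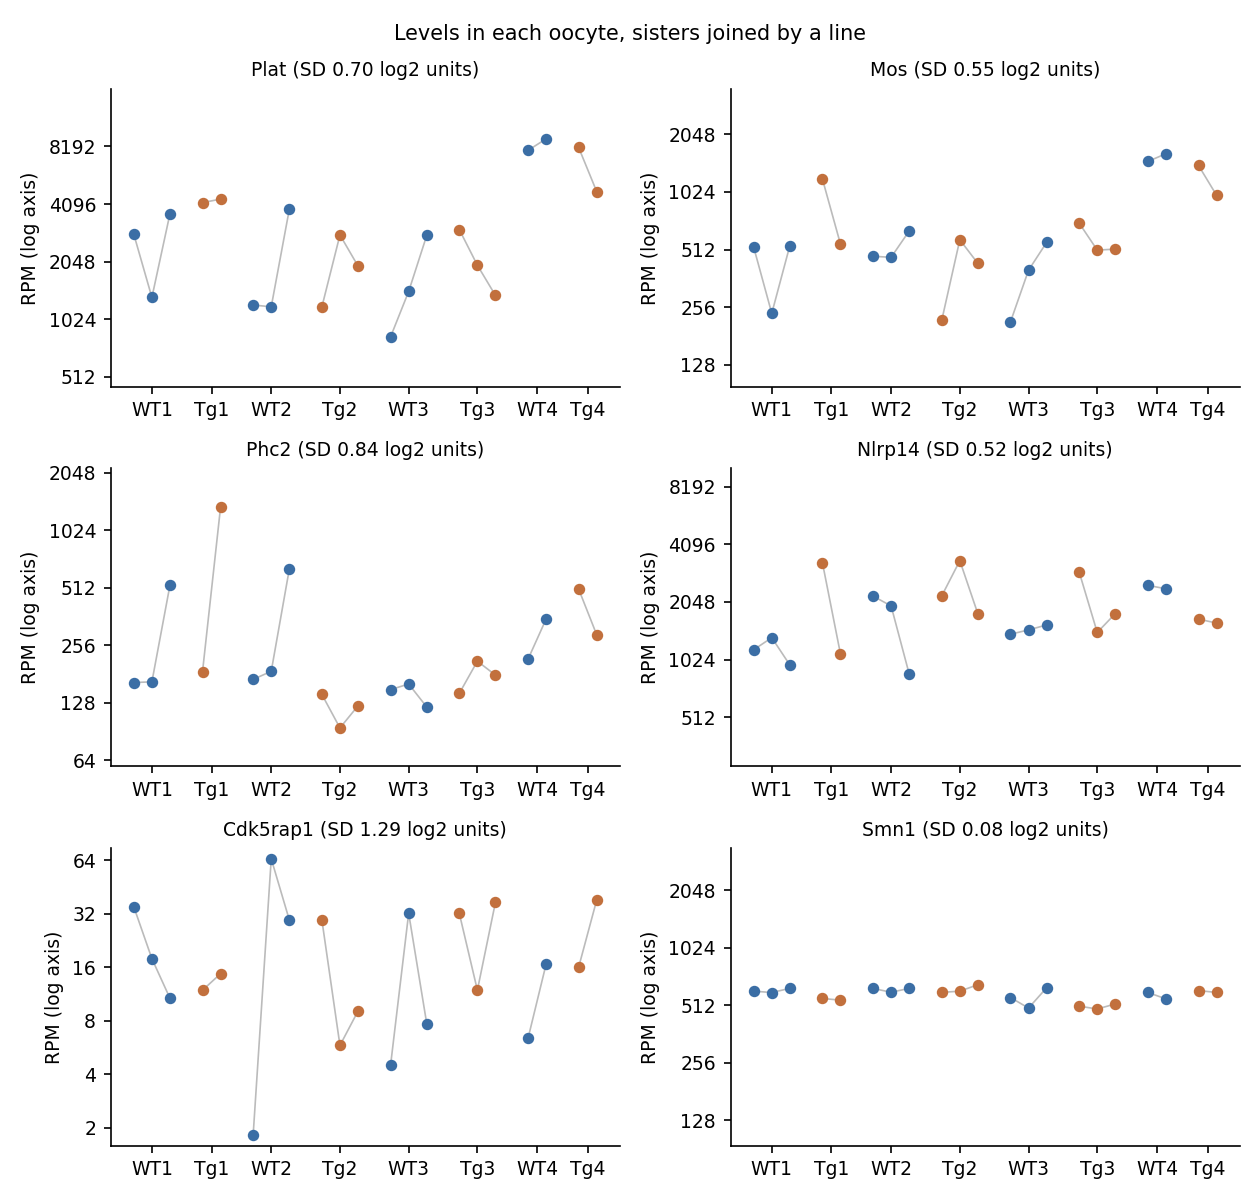
Each panel gives 1 gene and each point 1 oocyte (blue wild-type, orange transgenic), with RPM on a log axis and sisters joined by a line in the order of their letters. Plat, Mos and Cdk5rap1 differ between sisters in most families, Phc2 most in the families of WT1, Tg1 and WT2, and Smn1 in none by more than 1.28-fold.

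Functions were compared with 53 gene lists that had at least 5 members at 10 RPM. Over all 6528 genes the median excess was -0.0035 and pairs of genes moved together with a mean Pearson's r of 0.013 over the 21 deviations. The lists that varied most were the mitochondrially encoded genes, the subcortical maternal complex and the NLRP genes of the oocyte, followed by the zona and oocyte-secreted factors. The lists of lowest median excess were the two-cell-stage and Tcl1 genes, the CDK1 and cyclin B regulators and the cytosolic ribosomal proteins. The list medians ran from -0.29 to 1.16. With each family taken alone, the subcortical median had a mean of 0.62 ± 0.85 and the NLRP median 0.42 ± 0.65 (SD, n = 8 families). Each was above 0 in 6 of the 8 families. The two-cell-stage and Tcl1 list had -0.38 ± 0.49 and the ribosomal list -0.24 ± 0.52, each above 0 in 2 families. In each of these lists the SD between families was thus larger than the mean, unlike in the mitochondrial list.

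**Figure D3:**
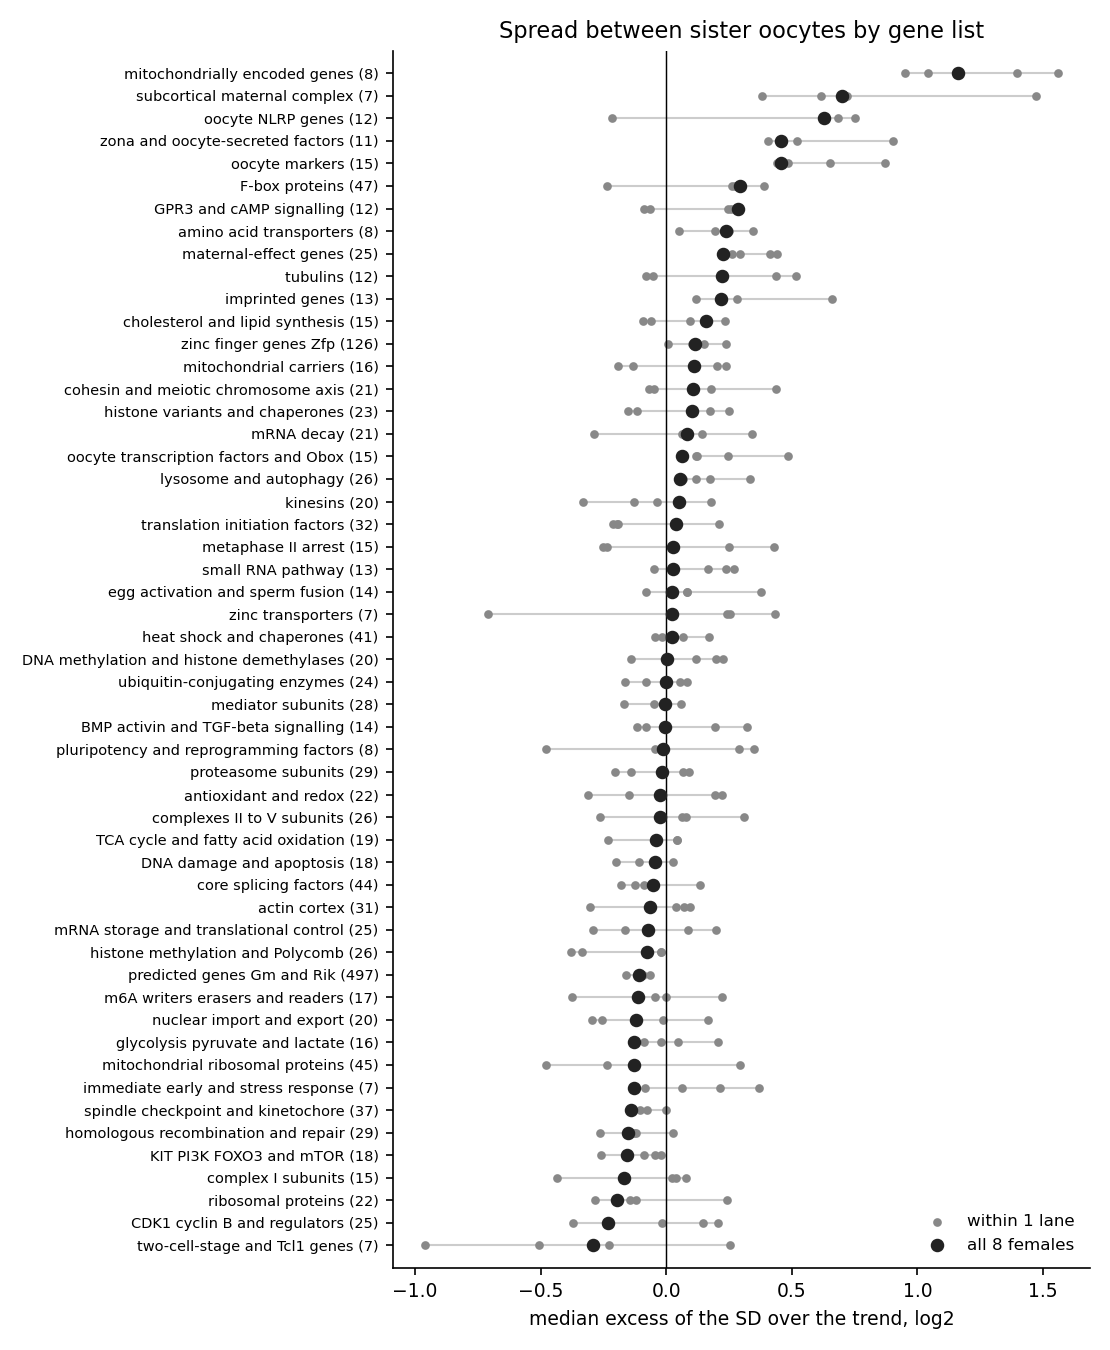
Median excess of each gene list (log2 of the SD between sisters over the trend, x axis), with the number of members tested in parentheses; large black points use all 8 females and small grey points the 2 females of 1 lane. The mitochondrial list lies above 0 in each lane, and many other lists have lanes on either side of 0.

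Transcripts of the mitochondrial genome varied most. They are made inside the organelle from its own DNA and encode core subunits of the respiratory chain. Of 13 that were listed, 8 had a mean of at least 10 RPM, 7 of the 8 were high, and the median excess was 1.16 (0.95, 1.04, 1.56 and 1.40 in lanes 1 to 4). It was above 0 in each of the 8 families taken alone, with a mean of 1.23 ± 0.68 (SD, n = 8 families). mt-Nd1, a subunit of complex I, stood at 1478, 1254 and 714 RPM in WT1, 704 and 561 in Tg1, 1016, 1028 and 880.4 in WT2 and 2066, 816 and 1232 in Tg2. In the other lanes it stood at 1886, 1089 and 1137 RPM in WT3, 638, 1776 and 2395 in Tg3, 1116 and 777 in WT4 and 737 and 1025 in Tg4. Sisters differed up to 3.75-fold on RPM + 1, in Tg3, and the excess was 1.41. mt-Co1, a subunit of cytochrome c oxidase, had an excess of 1.40, and mt-Cytb, the most abundant of the 8 with 2216 RPM, one of 1.04. The exception was mt-Atp6 (0.0021), which at 11.3 RPM lay near the limit of 10 RPM. The 8 moved as one, with r between pairs from 0.71 to 0.98 and a mean of 0.89 over the 21 deviations. Their summed level ran from 2766 RPM in Tg1C to 12630.0 RPM in Tg3C, and inside Tg3 from 4566 RPM in Tg3A. Without Tg3A and Tg3C, and so without family Tg3 in the SD, the list's median was 1.04. Without any 1 egg or family it was between 1.02 and 1.33.

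Transcripts of the cytosolic ribosomal proteins followed the mitochondrial ones from egg to egg, though 13 of those tested varied less than genes of their level. Of 87 that were listed, 22 had a mean of at least 10 RPM. Of the 22, 0 were high and 2 were low (9.09%, near the 9.3% of all genes), Rpl17 at -0.85 and Rps16 at -0.66. The median excess was -0.20 (-0.12, -0.15, 0.24 and -0.28 in lanes 1 to 4, and -0.038 without Tg1C, WT1C and WT2C). Rpl37 (0.55) and Rpl32 (0.40) varied most in the list. The mean deviation of the list ran from -0.53 in Tg3A to 0.44 in Tg3C, the same 2 eggs that bounded the mitochondrial genes (-0.95 and 0.67). Over the 21 deviations the mitochondrial and ribosomal means had a Pearson's r of 0.85 and a Spearman's rho of 0.72, and without Tg3A and Tg3C r was 0.71 (n = 19). The 2 lists share each egg's library and total. The share of a library's reads that lay in listed genes, a property of the library, moved with both (r of -0.79 with the mitochondrial and -0.92 with the ribosomal mean, n = 21), and its part in them was not tested. Nuclear-encoded subunits of complex I also moved together (mean r between pairs 0.28) with a median excess of -0.17; Ndufa4 (0.90) and Ndufb2 (0.67) were high and Ndufa10 (-1.16) was low.

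**Figure D4:**
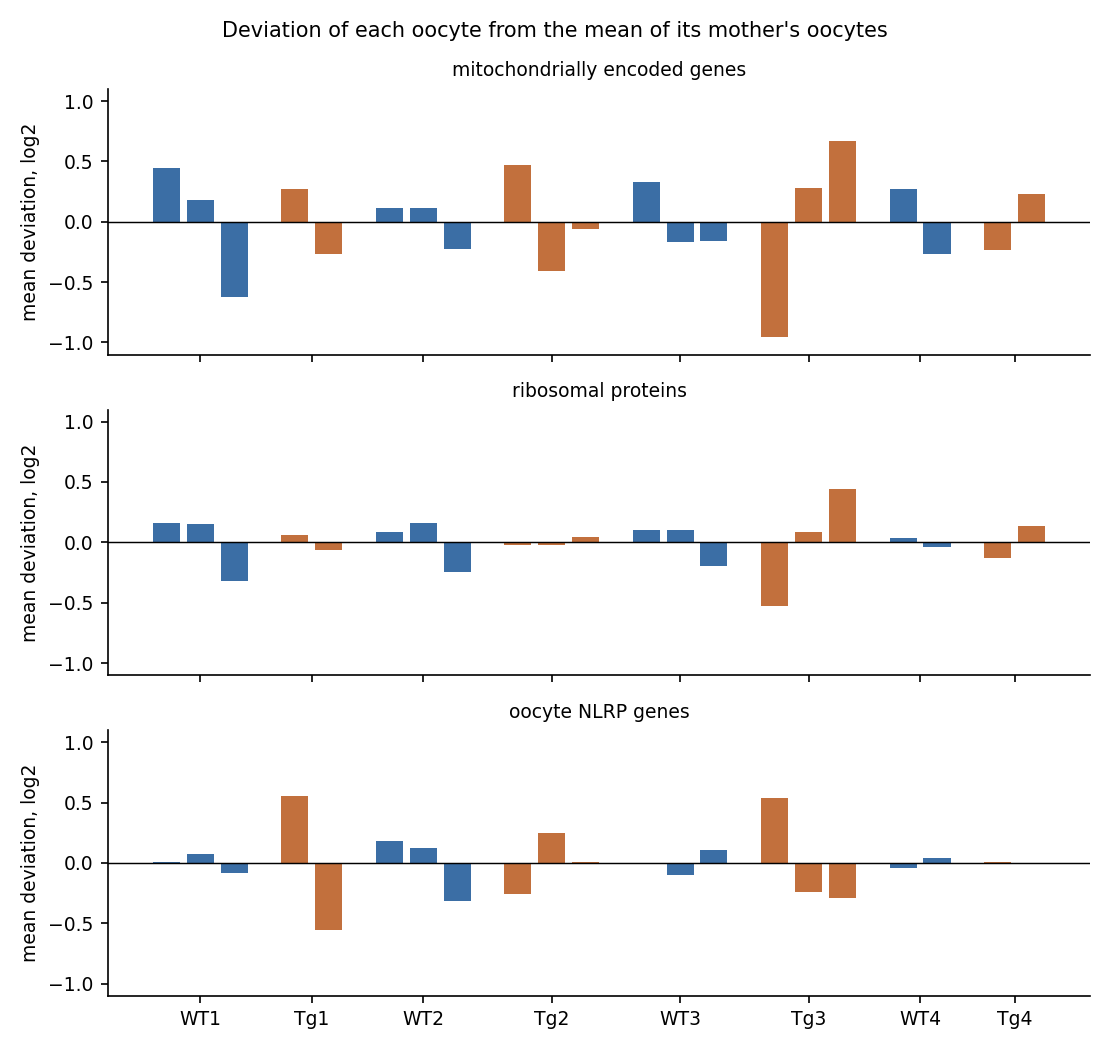
Bars give the mean deviation of 3 gene lists in each of the 21 oocytes from the mean of their mother's oocytes (y axis, log2 units; blue wild-type, orange transgenic; bars of a family stand side by side in the order of their letters). The mitochondrial and ribosomal lists are lowest in Tg3A and highest in Tg3C, and the NLRP genes are highest in Tg1B and Tg3A.

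The NLRP genes of the oocyte, several of which are needed for the early embryo, varied widely and together. All 12 of the 12 tested were above the trend and 6 were high, against the background of 9.59%. Nlrp14 (chromosome 7, 107166990 to 107198102) stood at 1152, 1332 and 959 RPM in WT1, 3290.0 and 1094 in Tg1, 2199, 1952 and 860.5 in WT2 and 2202, 3365 and 1773 in Tg2. In lanes 3 and 4 it stood at 1389, 1462 and 1553 RPM in WT3, 2937, 1418 and 1781 in Tg3, 2499.5 and 2400.3 in WT4 and 1665 and 1589 in Tg4. The gaps were wide in Tg1, WT2, Tg2 and Tg3 and narrow in WT1, WT3, WT4 and Tg4, and the excess was 1.30. Nlrp2 (1.07), Nlrp4b (0.94), Nlrp9a (0.87), Nlrp9b (0.73) and Nlrp5 (0.70) were also high, while Nlrp4a (0.042) and Nlrp4g (0.092) lay at the trend. All 66 pairs of the 12 had a positive r, with a median of 0.60. Their mean deviation was 0.55 in Tg1B and 0.54 in Tg3A, and -0.55 in Tg1C. The list's median excess of 0.63 was 0.75, 0.62, 0.69 and -0.22 in lanes 1 to 4, so lane 4 lay below the trend. Without Tg1B it was 0.32, and without Tg1C, WT1C and WT2C 0.45. Both settings take the whole family Tg1 out of the SD, since its remaining egg has no sister. The genes are copies of one family, and how reads that match several of them were counted is not given, so the members are not independent.

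The subcortical maternal complex, a protein assembly beneath the egg's surface that is needed for the first cleavages, had the second highest median (0.70), and 4 of its 7 members were high. These were Nlrp2, Nlrp5, Tle6 and Ooep. Nlrp2, Nlrp5 and Nlrp4f, which was not high, stand in this list and in that of the NLRP genes. Tle6 stood at 285 and 504 RPM in WT4 and at 285 and 175 RPM in Tg1. Ooep stood at 499, 709 and 1404 RPM in Tg3 and at 672, 1074 and 579 RPM in WT1. The members did not move as one. Nlrp5, Nlrp2, Tle6 and Padi6 had r between 0.63 and 0.85 for each pair over the 21 deviations, while Ooep had r between -0.43 and -0.05 with every other member. Zbed3, the most abundant transcript of the egg (16800.0 RPM, excess -0.025), and Padi6 (0.053) lay at the trend. The complex's median was 0.72, 0.38, 0.62 and 1.47 in the 4 lanes, and without egg Tg3C, which carried the highest Ooep level of its family, it was 0.38.

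Factors that the oocyte secretes or that mark it were also above the trend. In the list of zona and oocyte-secreted factors 10 of 11 members were above it and 4 were high (median 0.46, and 0.45, 0.52, 0.41 and 0.90 in the 4 lanes), and of the 15 oocyte markers 7 were high, 3 of which stand in both lists. Ooep, of the subcortical complex, was among those 3. The growth factor Gdf9 (0.99), which acts on cumulus cells, stood at 3914, 3177 and 6329.8 RPM in WT1, 3421, 5979 and 4916 RPM in Tg2 and 7734, 4648 and 3823 RPM in Tg3. The ovastacin gene Astl (1.08), whose protease hardens the zona after fertilisation, was high, as was Bmp15 (0.66). Jag1 (-0.57) was the member below the trend. Among maternal-effect genes (25 tested, median 0.23, above 0 in all 8 families) 6 were high, led by the histone chaperone Npm2 (1.08) and by Gas6 (0.96), and Atg5 (-0.69) was low.

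Mos, the kinase that holds the egg in metaphase, varied most in the list of metaphase II arrest (excess 1.32, beside a median of 0.028 for its 15 members). It stood at 527, 238 and 537 RPM in WT1, 218, 576 and 433 RPM in Tg2 and 214, 399 and 558 RPM in WT3. Ppp2r5c, a subunit of protein phosphatase 2A, was low (-0.85). Mos and Plat were low and high in the same eggs of WT1, Tg2 and WT3. Their deviations had an r of 0.80 over the 21 eggs, those of Plat and Gdf9 0.86 and those of Mos and Gdf9 0.73; each pair shares the eggs' libraries, and the genes were paired after their values were seen. Of the high genes, those with deviations most like Gdf9's were the disulfide isomerase P4hb (r 0.96) and Astl (0.92), and those most like Mos the disulfide isomerase Pdia6 (0.90) and Lbr (0.84). Plat's were Mfsd10 (0.88) and P4hb (0.87), and Phc2's was Siah2 (0.98). Phc2 and Plat, the pair of highest excess among genes above the trend in all 4 lanes, had an r of 0.35.

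The list of lowest median was that of the two-cell-stage and Tcl1 genes. Tcl1 proteins are co-activators of the kinase AKT, and the family is expressed in the egg and early embryo. Of 18 that were listed, 7 had a mean of at least 10 RPM, 0 were high, 1 was low and none was above the trend (median -0.29). Tcl1b1 stood at 2051, 2091 and 1796 RPM in WT1, 1367 and 1165 in Tg1, 1635, 1787 and 1636 in WT2 and 2078, 1933 and 1963 in Tg2, and its excess was -0.68. It and Tcl1b3 (-0.58) varied least, and Tcl1, one of the most abundant transcripts (10170.0 RPM), had -0.23. The lanes differed, with -0.51, -0.96, 0.26 and -0.23 in lanes 1 to 4, and 6 of the 7 are Tcl1 family copies, whose reads may be shared as above. Without Tg1C, WT1C and WT2C the median was 0.0039, so that the list then lay at the trend.

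The regulators of CDK1 and cyclin B, which drive entry into and exit from meiotic divisions, had the second lowest median (-0.23, 25 tested), but 11 of the 25 were above the trend. The lanes gave 0.20, -0.37, -0.017 and 0.15, of either sign, and 6 of the 8 families taken alone were above 0, with a mean of 0.15 ± 0.21 (SD, n = 8 families), opposite in sign to the pooled median. With the median of the families' SDs in place of the pooled SD the list had -0.039, and without Tg1C, WT1C and WT2C -0.11. Cdc25a (0.82), a phosphatase that activates CDK1, and Cdc20 (0.67), an activator of the anaphase-promoting complex, were high, and Anapc1 (-0.69) and Ensa (-0.60) were low. That is 8% of the list each way, near the shares of all genes. Without Tg1C, WT1C and WT2C, Cdc25a had an excess of -0.27. Genes of homologous recombination and repair, which act on breaks in DNA, had no high member. Of 29 tested 0 were high and 6 low (20.7%, beside 9.3% of all genes), with a median of -0.15 (-0.13, -0.12, -0.26 and 0.027 in lanes 1 to 4). The low ones were Msh6 (-0.84), Brca2 (-0.78), Rad50, Parp1, Swi5 and Fancd2. In the spindle checkpoint and kinetochore list 1 of 37 was high (Cenpq, 1.01), which is 2.70% beside 9.59% of all genes. In that list 5 were low (13.5%, beside 9.3% of all genes), led by Cdca8 (-1.29), the borealin subunit of the chromosomal passenger complex. Of 44 core splicing factors 0 were high and 4 low (9.09%, near the 9.3% of all genes).

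Other lists held members at each end. F-box proteins, the substrate adaptors of ubiquitin ligases, had a median of 0.30 (0.39, 0.28, -0.24 and 0.26 in lanes 1 to 4). Of 47 tested 5 were high (10.6%, near the 9.59% of all genes) and 3 low (6.38%, beside 9.3%), with Fbxo21 (0.84) and Fbxo10 (0.81) highest. In the list of GPR3 and cAMP signalling, which holds the oocyte in meiotic arrest, the receptor gene Gpr3 (0.66) and Prkaca (0.76), the catalytic subunit of protein kinase A, were high and the phosphodiesterase gene Pde8a (-0.73) low. Of 8 amino acid transporters Slc38a7 (0.85) and the glycine carrier Slc6a9 (0.61) were high. Of 41 chaperones 5 were high (12.2%, beside 9.59% of all genes). Among them were Cct2, Cct4 and Cct5, subunits of the cytosolic chaperonin (0.72, 0.59 and 0.62), while Cct3 (-0.90) was low. In glycolysis, pyruvate and lactate metabolism (16 tested) 18.8% were high and 18.8% low. Dld (0.93) and Ldhb (0.62) were high and Pdhx (-0.84), like Dld a component of the pyruvate dehydrogenase complex, was low.

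In the actin cortex list (31 tested) 9.68% were high and 12.9% low, beside 9.59% and 9.3% of all genes. Arpc2 (-1.14) and Rac1 (-1.04) were low, while Cdc42 (0.75), like Rac1 a small GTPase of the cytoskeleton, and Arpc4 (0.75) were high. The members named here and below were picked from the ends of their lists, and contrasts between them are no result about a function. Among factors of messenger RNA storage (25 tested, 12% high and 8% low) Lsm14a (-0.97) was low. Its paralogue Lsm14b (1.13) was high, as was the poly(A)-binding protein gene Pabpn1l (1.16). In the KIT and PI3K list (18 tested, median -0.15, 11 below the trend) 3 were high (16.7%), Foxo1 (0.99), Akt1 (0.94) and Gsk3a (0.70), and 1 was low (5.56%). The receptor gene Kit had 0.39 and Foxo3 -0.36. The mediator list (28 tested, 14.3% high and 14.3% low) ran from Med30 (-1.27) to Med18 (1.19). The proteasome list (29 tested, 13.8% high and 10.3% low) ran from Psmb6 (-1.15) to Psmd3 (1.11). Among imprinted genes (13 tested, median 0.22) Phlda2 (0.89) and Mest (0.62) were high. Among histone variants and chaperones (23 tested, 17.4% high and 4.35% low) the linker histone H1f0 (1.32) and Hmgb2 (1.11) were high and Hmgb3 (-1.01) low. Pou5f1 (0.93), the pluripotency factor, and Sycp3 (1.07), a component of the meiotic chromosome axis, were high in their lists (12.5% of 8 and 4.76% of 21 tested).

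The most abundant transcripts were close to the trend for their level, Gdf9 apart. After Zbed3 and Tcl1 these were Bcl2l10 (-0.037), the linker histone H1foo (0.12), the deadenylation adaptor Btg4 (0.18), E330034G19Rik (-0.17), Rfpl4 (-0.0078), Gdf9 (0.99), the cortex protein radixin (Rdx, 0.073) and Trim61. Trim61 was the low one, with -0.81, an SD of 0.12 and at most 1.29-fold between sisters.

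A few eggs stood apart from their sisters. In a principal component analysis of the deviations the first axis held 23.6% and the second 19.6% of the squares, against 7.69% for each of 13 equal axes. Tg1C, WT1C and WT2C had the 3 highest scores on the first axis (0.435, 0.409 and 0.392, the next being 0.172 in Tg2A). Tg1 has 2 eggs, whose deviations mirror each other, so Tg1B had the lowest score (-0.435), and the deviations cannot tell which of the 2 stood apart. Tg3A (0.579) and Tg3C (-0.491) bounded the second, and the mitochondrial genes were lowest and highest in those 2 eggs, as given above. The families differed in spread. The median SD between sisters ran from 0.176 in WT4 and 0.18 in Tg4, each with 2 eggs, to 0.328 in Tg3. Without the first 3 eggs, and so without Tg1 in the SD, 602 genes were high. Of these 344 (57.1%) were among the 626 called with them, which is 55% of the 626. Leaving out Tg3A and Tg3C also takes Tg3B, then without a sister, out of the SD, and so the whole family. In that setting 744 were high, 539 of them (72.4%) shared, which is 86.1% of the 626.

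The 3 eggs at the end of the first axis carried more of the transcripts rich in G and C. Furin (496 RPM in Tg1C against 48.0 in Tg1B, 177 in WT1C against 55.3 and 54.2 in its sisters), Lbx1 and Phc2 led the genes that were higher in them, and Prl8a2, Satl1 and D19Bwg1357e those that were lower. These 6 were chosen after their values were seen. To show their composition, the middle 90 bases of each coding sequence follow, in GENCODE M21 transcripts of GRCm38, 5′ to 3′, with G and C in capitals.
Furin: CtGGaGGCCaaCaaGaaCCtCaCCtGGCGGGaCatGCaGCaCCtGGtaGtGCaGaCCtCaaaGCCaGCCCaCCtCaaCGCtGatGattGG
Lbx1: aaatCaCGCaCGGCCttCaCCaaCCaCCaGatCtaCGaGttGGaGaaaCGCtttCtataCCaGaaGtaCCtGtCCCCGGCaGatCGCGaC
Phc2: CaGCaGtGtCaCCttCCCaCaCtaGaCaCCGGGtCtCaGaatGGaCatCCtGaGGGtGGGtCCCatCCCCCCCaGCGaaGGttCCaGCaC
Prl8a2: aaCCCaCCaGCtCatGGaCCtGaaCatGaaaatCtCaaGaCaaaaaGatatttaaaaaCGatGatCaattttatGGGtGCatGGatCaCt
Satl1: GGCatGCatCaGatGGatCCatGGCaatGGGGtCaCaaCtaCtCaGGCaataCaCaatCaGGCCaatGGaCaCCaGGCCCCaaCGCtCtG
D19Bwg1357e: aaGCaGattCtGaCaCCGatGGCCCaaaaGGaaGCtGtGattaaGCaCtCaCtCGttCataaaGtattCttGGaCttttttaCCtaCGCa
Furin lies on chromosome 7, 80388585 to 80405436, Lbx1 on chromosome 19, 45232688 to 45235811, Prl8a2 on chromosome 13, 27345683 to 27354216, Satl1 on chromosome X, 112384303 to 112406779 and D19Bwg1357e on chromosome 19, 27388702 to 27429820. The stretches hold 58.9%, 53.3% and 61.1% G and C in the first 3 and 36.7%, 54.4% and 42.2% in the last 3, so that of Satl1 is above that of Lbx1. Over the whole transcript the shares are 58.3%, 61.6% and 60.4% against 40.0%, 44.8% and 46.8%.

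Across 6486 genes with a matched transcript, the loading on the first axis had a Spearman's rho of 0.44 with GC share, 0.11 with length and -0.056 with level, where genes are not independent replicates. In the fifth of genes richest in GC the median deviation was 0.24 in WT1C, 0.17 in Tg1C and 0.14 in WT2C, and it was 0.18 in Tg2A. In the fifth poorest in GC it was -0.12, -0.17, -0.13 and -0.011 in the same eggs. High calls followed this pattern. They made up 19.4% of the genes richest in GC and 6.86% of those poorest in it, and low calls 4.55% and 10.9%. The median GC share was 52.0% in high, 47.8% in the genes between and 46.2% in low genes, while the median transcript lengths were 3056, 3342 and 3189 bases. The mitochondrial genes went against it, with a median GC share of 36.5%, as did the NLRP genes with 42.0%. With each egg's slope on GC share removed 590 genes were high, 492 of them (83.4%) shared with the 626 (78.6%), and the mitochondrial, subcortical and NLRP medians were 1.22, 0.72 and 0.42. Beside these eggs' deviations, the cumulus marker sum was highest in WT2C, as given above, and was 25.4 and 11.3 RPM in WT1C and Tg1C; the sum of 13 oviduct markers was highest in Tg1C at 278 RPM, of which Cdh1 made 268 RPM. Their part in the pattern was not tested.

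**Figure D5:**
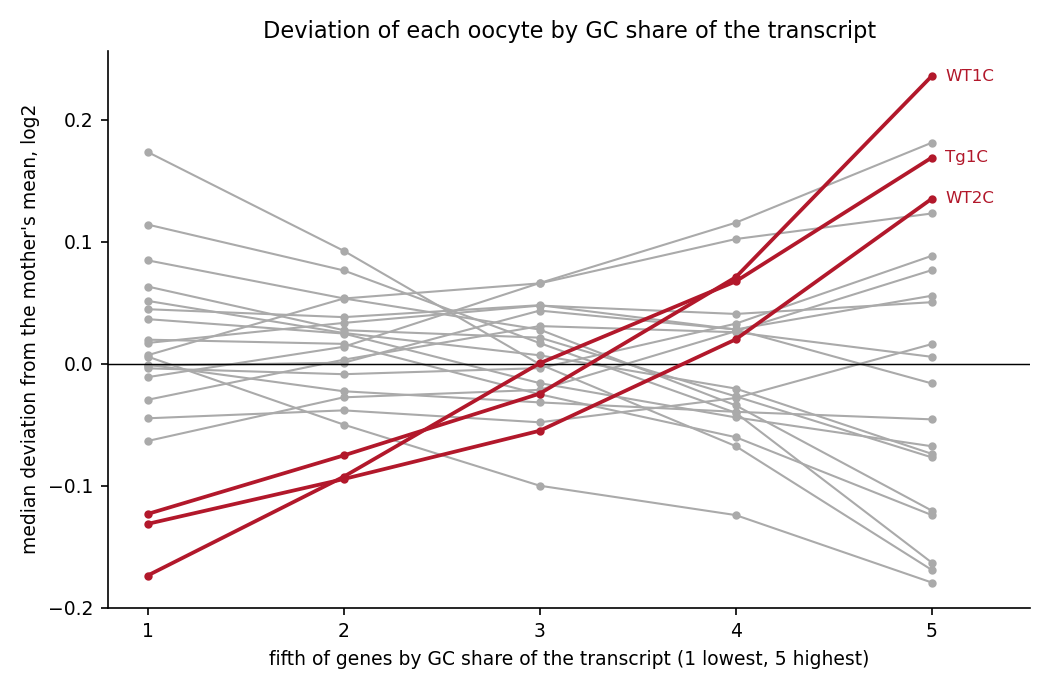
Each line is 1 oocyte and gives its median deviation from the mean of its mother's oocytes (y axis, log2 units) in 5 equal groups of genes ordered by GC share of the transcript (x axis). The 3 eggs in red, Tg1C, WT1C and WT2C, are the lowest of the 21 in the group poorest in GC and are among the 4 highest in the group richest in it.

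Of positions, the mitochondrial genome stood out, with 87.5% of its genes high. By chromosome, high calls ran from 5.85% on chromosome 18 to 13.5% on chromosome 15 among the autosomes, and stood at 9.52% on the X chromosome. The cytoplasmic polyadenylation motifs TTTTAT and TTTTAAT, which let stored messages gain a tail, were searched in the last 100 bases of the transcripts on the sense strand; neither motif contains the other. At least 1 of the 2 was found in 22.9% of high, 22.2% of low and 23.3% of all transcripts.

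Eggs of one mother were more alike than eggs of different mothers in a lane. The mean Pearson's r across genes was 0.954 over 18 pairs of sisters and 0.941 over 28 pairs of lane mates with different mothers, higher for sisters in all 4 lanes (exact permutation of eggs between the mothers of a lane, 24000 arrangements, one-sided p = 0.0023). The difference was 0.034 in lane 1 and 0.0018 in lane 3, and since the mothers of a lane differ in genotype, mother and genotype cannot be told apart in it. Gene by gene, 856 of 6528 genes (13.1%) differed between the 8 mothers in limma's F test at an adjusted p under 0.05. Each mother lay in 1 lane and the fit held no lane term, so mother, lane and genotype cannot be told apart in these calls. The median SD of the 8 mothers' means was 0.283 log2 units, beside 0.331 for single eggs within a mother. Each mean rests on few eggs and so carries part of the spread between sisters, which was not subtracted. The 0.283 is therefore not the spread between mothers alone, and how much of it comes from sisters was not tested. Of high genes 14.1% differed between mothers and of low genes 15.0%.

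The calls were spread unevenly over the mothers. The mean farthest from the median of the 8 was that of WT4 in 408 of the 856 genes and that of Tg1 in 314, and without WT4 94 genes were called, while 1606 passed an unadjusted p of 0.05, beside 2216 with WT4. Without WT3, which was farthest in 28 genes, 426 were called. Inside lanes, where the 2 mothers were compared with each other, 163 genes differed. Leaving out other single eggs or mothers gave 192 to 1429. Both eggs of WT4 shared their outlying levels. Cfl1, the actin-severing protein cofilin (chromosome 19, 5490485 to 5494029), stood at 289.8 and 506 RPM in WT4, against 30.3 to 69.0 RPM in the other 19 eggs (limma adjusted p = 4.6e-06), while its excess within mothers was 0.039. Ube2t, a ubiquitin-conjugating enzyme of DNA repair, stood at 1448 and 1558 RPM in WT4, 475 and 639.6 RPM in Tg4 and between 52.4 and 301 RPM elsewhere (limma adjusted p = 2.4e-06). Tm2d1 stood at 202 and 306 RPM in WT4 and 49.3 and 30.3 RPM in Tg4. The histone gene H3f3a stood at 147 and 139 RPM in WT4 and 61.6 and 51.9 RPM in Tg4. WT4 was thus highest and Tg4 next for Ube2t, Tm2d1 and H3f3a, and Cfl1 and H3f3a have copies elsewhere in the genome with which reads could be shared. In the 17 eggs of lanes 1 to 3 Tm2d1 lay at or under 22.0 RPM and H3f3a at or under 34.0 RPM. 2610039C10Rik, 2400001E08Rik, Pdcl3 and Hormad1 completed the 8 genes of smallest p. Hormad1 was the one among them that was not highest in WT4: its mean was 58.3 RPM in Tg2, 24.6 RPM in Tg4 and 18.8 RPM in Tg3, and 0.474 to 1.4 RPM in the other 5 (limma adjusted p = 1.6e-07). It encodes a protein of meiotic chromosome axes.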

How the data were processed

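Single oocytes were measured by RNA sequencing. The authors deposited log2 values per gene, described as RPKM; trimming used Trim Galore and alignment HISAT2, with GRCm39 named as the build, per the submitters' processing notes, while a counting tool is named in none of the sources used here. The deposited log2 values had no length term: after 2 to the power of the value, 100% of 240346 values under 2000 reads were whole reads within 0.02 at 1 scale per library, so they are reads per 1000000 reads of the library (RPM), and the column minimum, worth 0.9 reads, was set to 0. The coordinates in the table are GRCm38, since 99.8% of 25035 matched gene IDs overlap GENCODE M21.

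The SD of log2(RPM + 1) was pooled within mothers over genes that averaged 10 RPM or more, and compared with a lowess trend of log2 SD on level (span 0.3; Python 3.11.15, statsmodels 0.14.6). An SD 1.5 times above or below the trend was called, with no test. Mothers were compared with limma 3.58.1 (R 4.3.3), an F test of 8 means with a trended prior and Benjamini-Hochberg adjustment, called at 0.05. Simulated data of independent normal draws held 100 changed genes for each size among 6528. An SD of 2 times the trend was called high in 92% and one of 0.5 times called low in 96%. High and low calls among the unchanged genes were not counted. The share of the high and low calls that sampling of so few eggs gives by itself is therefore not known. The F test recovered 93% where the SD of mothers was 2 times that within them, and called 12 unchanged genes. In the data the median SD of mothers' means was 0.857 of the median within mothers, with the sisters' part of it not subtracted. Recovery at that size was not simulated.

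The members and lists were chosen with earlier results of these data known. Named genes are the 12 of highest and 12 of lowest excess on the same side of the trend in all lanes (leaving out predicted genes), the 10 most abundant, up to 2 at each end of a list and the 8 of smallest F-test p; others, such as further called members of a list, were named after their values were seen. On average oocyte letters did not pair samples: deviations of same-lettered oocytes of different mothers had a mean r of 0.0015 over 64 pairs. Single pairs ran from -0.365 to 0.523. Tg1C, WT1C and WT2C, the highest on the first axis, all carry the letter C and lie in lanes 1 and 2. Whether letters pair eggs inside single lanes was not tested. Alternatives were another pseudocount, level filter, trend and scaling, single lanes, and leaving out each oocyte or mother. A few genes that the naming rule gives are not reported here. Oocyte A of Tg1, the water library and the kit RNA were not analysed here. P-values measure the spread between these oocytes and their libraries.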

Additional observations from a re-analysis of the deposited data

Results flagged for a closer look

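The values of the 8 mothers were compared for 53 gene lists, 8 named genes and the median SD between sisters. A value was listed where 1 mother's gap to the nearest other exceeded 0.526 of the range, Dixon's 95% value for 8 samples, which chance gives for about 1 in 20 sets. For the lists 3 such values were found, near that share.

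For 3 gene lists a single family stood apart in its spread between sisters. The median excess of the zona and oocyte-secreted factors was 1.714 in WT4, against 0.157 to 0.875 in the other 7 families, and WT4 has 2 eggs. For DNA methylation and histone demethylases it was -1.036 in Tg1, also a family of 2 eggs, against -0.013 to 0.439. For DNA damage and apoptosis it was -0.508 in Tg2, against -0.096 to 0.134.

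WT4 also stood apart in level for 4 of the 8 genes chosen for their smallest F-test p between mothers. That choice favours such gaps, so they are a description. The log2 of its mean level (RPM + 1) was 8.512 for 2610039C10Rik against 3.89 to 4.65 in the other 7 mothers, and 8.584 for Cfl1 against 5.38 to 5.74. It was 7.964 for Tm2d1 against 3.45 to 5.31, and 7.361 for 2400001E08Rik against 3.67 to 4.8.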

How the results depend on the processing

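The level filter set the counts. At a mean of at least 1 RPM the median SD was 0.410, with 964 high and 1214 low genes and a ribosomal median of -0.48, and at 50 RPM it was 0.263, with 357 and 321, and the ribosomal median was 0.060. In lane 4 alone, with 4 eggs, the median SD was 0.217. The CDK1 and cyclin B list had a median of 0.20 in lane 1, -0.017 in lane 3 and 0.15 in lane 4. The two-cell-stage and Tcl1 list had -0.96 in lane 2 and 0.26 in lane 3, and the NLRP genes had -0.22 in lane 4. Named genes called high or low that changed sign were Cdc25a (-0.69 in lane 3, -0.29 in lane 4 and -0.27 without Tg1C, WT1C and WT2C), Rps16 (0.14 in lane 3), Ensa (0.39 in lane 4) and Nlrp14 (-1.34 in lane 4), and several named genes that were not called also crossed the trend. The cause was not tested. Of 2511 recomputed values of 55 named genes 2228 kept their side of the fold and 6 reversed, and of 2161 medians of 47 other lists 2133 moved by less than 1 SD between families. That SD is taken over medians of single families of 2 or 3 eggs, and in most lists it is larger than the median itself. A median can therefore change sign and still be counted, and most settings share most of the eggs. The counts are a description and do not measure how firm the medians are.

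Leaving out each oocyte and each mother in turn gave a median SD of 0.310 to 0.336, 573 to 748 high and 627 to 703 low genes. An egg left without a sister drops out of the SD, so leaving out 1 egg of WT4, Tg1 or Tg4 took out the family. The list medians were 1.02 to 1.33 for the mitochondrial genes, 0.38 to 0.78 for the subcortical complex, 0.32 to 0.74 for the NLRP genes, -0.30 to -0.11 for the ribosomal proteins, -0.30 to -0.11 for the CDK1 list and -0.56 to -0.17 for the two-cell-stage and Tcl1 genes. The ends that differed from the full set by over 1.5 times were those without Tg3 for the subcortical complex (0.38) and the CDK1 list (-0.11), without Tg1B for the NLRP genes (0.32), without Tg3A (-0.30) and WT2 (-0.11) for the ribosomal proteins, and without Tg3C (-0.56) and Tg3A (-0.17) for the two-cell-stage and Tcl1 genes. Genes that differed between mothers numbered 94 (without WT4) to 1429 (without Tg3A), and 8 of 29 such fits lay beyond 1.5 times of 856. Those below were without WT4, WT4A (441), WT4B (192), Tg1 (551), WT3 (426) or WT3A (468), and that above besides Tg3A was without Tg1B (1393). A comparison inside lanes gave 163. With the oocyte letter as a replicate block 845 genes were called, 727 of them among the 856.

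Alternatives chosen after seeing the data left out the eggs that stood apart or removed each egg's slope on GC share. Leaving out Tg1C, WT1C and WT2C took Tg1B out of the SD as well, and leaving out Tg3A and Tg3C took out Tg3B. Without Tg1C, WT1C and WT2C, 666 genes were low, 393 of them among the 607. Taking the median of the families' SDs in place of the pooled SD, which was planned, gave 732 high genes, 424 shared, and 871 low genes, 416 shared.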
